A study of Mus musculus with 12 samples.

Results

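The genes described here mark the early steps of the oligodendrocyte lineage, the cells that make myelin in the central nervous system. They were chosen by name, with earlier results of these data known. Pdgfra, Cspg4 and C1ql1 were taken as genes of the dividing precursor. Gpr17, Enpp6, Bcas1, Itpr2, Fyn and Sirt2 were taken as genes of the newly formed oligodendrocyte. These 9 genes were measured by 21 probe sets, of 45037 tested and 18193 named genes in all. Their RNA levels were followed in mouse spinal cord on 12 one-colour Affymetrix arrays, 3 biological replicates in each of 4 groups: Olig2cre/DA-Cat at day 15, wild-type littermates at day 15, Olig2cre/DA-Cat at day 4 and wild-type littermates at day 4. Olig2cre puts Cre recombinase into cells that use the Olig2 gene, which include motor neuron progenitors as well as the oligodendrocyte lineage, and DA-Cat is dominant-active β-catenin, the protein that carries canonical Wnt signals to the nucleus. No group carried Cre alone, so the effects of Cre and of DA-Cat cannot be told apart. The number of animals behind a sample is not in the labels. They tag the days as developmental stages while describing lysolecithin lesions of adult cords as the protocol. What the days are counted from could not be settled from the labels. In wild type, 19 of 19 myelinating genes measured rose between day 4 and day 15, by a median of 2.29 log2 units. Of all named genes 19.9% rose.

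Oligodendrocyte precursors divide in response to platelet-derived growth factor, which they sense through Pdgfra. They then leave the cell cycle and pass through a short premyelinating stage, and finally wrap axons and switch on myelin genes. Genes such as Gpr17, Enpp6 and Bcas1 are known for a peak at the middle step. Levels of precursor, newly formed and myelinating genes are therefore set side by side here. They do not measure how many cells are at each stage. In whole tissue, fewer cells of a stage and less RNA per cell cannot be told apart.

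Promoter windows of 3 of the genes are shown because they belong to genes that fell together at day 4 (Enpp6 and Sirt2) and to a gene whose difference did not pass the test (Cspg4). Each is the 250 bases before the start of a RefSeq transcript on GRCm38.p6, 5′ to 3′ on the gene's strand. Capitals mark matches to CTTTGA, the core bound by TCF and LEF factors, or to ACAAT, a core bound by SOX factors, on either strand.
Enpp6: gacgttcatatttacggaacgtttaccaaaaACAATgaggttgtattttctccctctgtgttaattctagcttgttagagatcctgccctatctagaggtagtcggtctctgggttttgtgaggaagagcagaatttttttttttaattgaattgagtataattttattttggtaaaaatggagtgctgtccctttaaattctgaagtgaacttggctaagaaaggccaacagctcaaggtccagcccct
Sirt2: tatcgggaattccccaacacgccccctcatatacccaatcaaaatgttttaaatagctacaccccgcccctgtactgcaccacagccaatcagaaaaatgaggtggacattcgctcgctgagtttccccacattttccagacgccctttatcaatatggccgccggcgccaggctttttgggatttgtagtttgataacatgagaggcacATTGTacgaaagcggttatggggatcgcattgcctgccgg
Cspg4: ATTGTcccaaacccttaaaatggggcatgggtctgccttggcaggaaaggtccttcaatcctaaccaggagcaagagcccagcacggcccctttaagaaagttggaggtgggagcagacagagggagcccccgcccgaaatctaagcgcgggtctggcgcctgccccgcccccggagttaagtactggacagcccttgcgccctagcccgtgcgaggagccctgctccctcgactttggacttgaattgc

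These windows lie at chr8:46986637-46986886, chr7:28766502-28766751 and chr9:56864854-56865103, all on the plus strand. The Sirt2 and Cspg4 windows end just before the first base of the annotated gene. The Enpp6 window does not: its transcript starts 47690 bases after the first base of the annotated gene, which begins at 46939197, so the window lies inside the gene and no window at the outermost start was read. Enpp6 holds 1 ACAAT 219 bases before this internal start. Sirt2 holds 1 on the other strand that begins 40 bases before its start, and Cspg4 holds 1 on the other strand at the first base of its window. Windows were matched for 6 of the 9 genes, and the other 3 (Pdgfra, Fyn and Itpr2) belong to transcripts that start 929, 56 and 35 bases after the first base of their genes. Of these, Fyn holds 1 CTTTGA 96 bases before that start, and Pdgfra and Itpr2 hold none of the motifs; CAGCTG, an E-box, was in none of the 6. Of 32851 RefSeq promoter windows of this length, 27.7% held ACAAT, 13.8% CTTTGA and 13% CAGCTG on either strand. The matches share no overlap with each other, and they describe letters only.

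The arrays matched their labels on known Wnt feedback genes, while the tissue label did not cover all that was measured. All 6 Wnt feedback genes checked were higher in Olig2cre/DA-Cat at day 4 (adjusted p under 0.05 in limma), among them Axin2, a negative regulator of β-catenin, by 1.05 log2 units; 3 of the 6 passed at day 15, with Axin2 at 0.51. Ctnnb1, the gene of β-catenin itself, differed by -0.05 at day 4 (limma adjusted p = 0.768). The source is labelled white matter, yet the neuron cell body marker Rbfox3 lay between 11.85 and 12.48 on the 12 arrays and the axon filament Nefl between 13.64 and 14.15, against array medians of 6.14 to 6.19 and a median of 3.07 for bacterial control probe sets. The sex-linked genes Xist and Eif2s3y were both over 6 on 9 arrays. On these, Xist was at 10.73 or higher and Eif2s3y at 6.54 or higher, so these samples may hold RNA of both sexes. Whether animals were pooled is not in the labels and was not tested. Xist was at 5.49 on Olig2cre/DA-Cat day 4 replicate 2 and 5.64 on wild type day 15 replicate 2, and Eif2s3y was at 3.29 on Olig2cre/DA-Cat day 15 replicate 2. The mean level of 12 skeletal muscle genes was 10.77, 5.35 and 8.66 in Olig2cre/DA-Cat at day 15 and 6.50, 5.18 and 7.53 in wild type. At day 4 it was 5.77, 9.09 and 7.83 in Olig2cre/DA-Cat and 5.53, 8.37 and 6.44 in wild type.

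The first comparison asked how these stage genes differed between Olig2cre/DA-Cat and wild type at day 4. Of the 9 genes, 6 fell in Olig2cre/DA-Cat and 0 rose, against 1.45% of all named genes that fell and 0.561% that rose: 5 of the 6 newly formed genes (Enpp6, Bcas1, Sirt2, Gpr17 and Itpr2) and 1 of the 3 precursor genes (C1ql1). For the 5 newly formed genes that fell the level ran from 22.0% of the wild-type signal for Enpp6, over 33.5% for Bcas1, to 61.7% for Itpr2, and C1ql1 fell to 74.7%. Calls come from limma on log2 signals at a Benjamini-Hochberg adjusted p under 0.05 over all probe sets, and each gene is represented by its probe set with the highest mean. The median difference was -1.46 over the 6 newly formed genes, -0.24 over the 3 precursor genes and 0.03 over all named genes. The 6 calls held under each of the 25 alternative settings, including those that left out any single array.

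**Figure D1:**
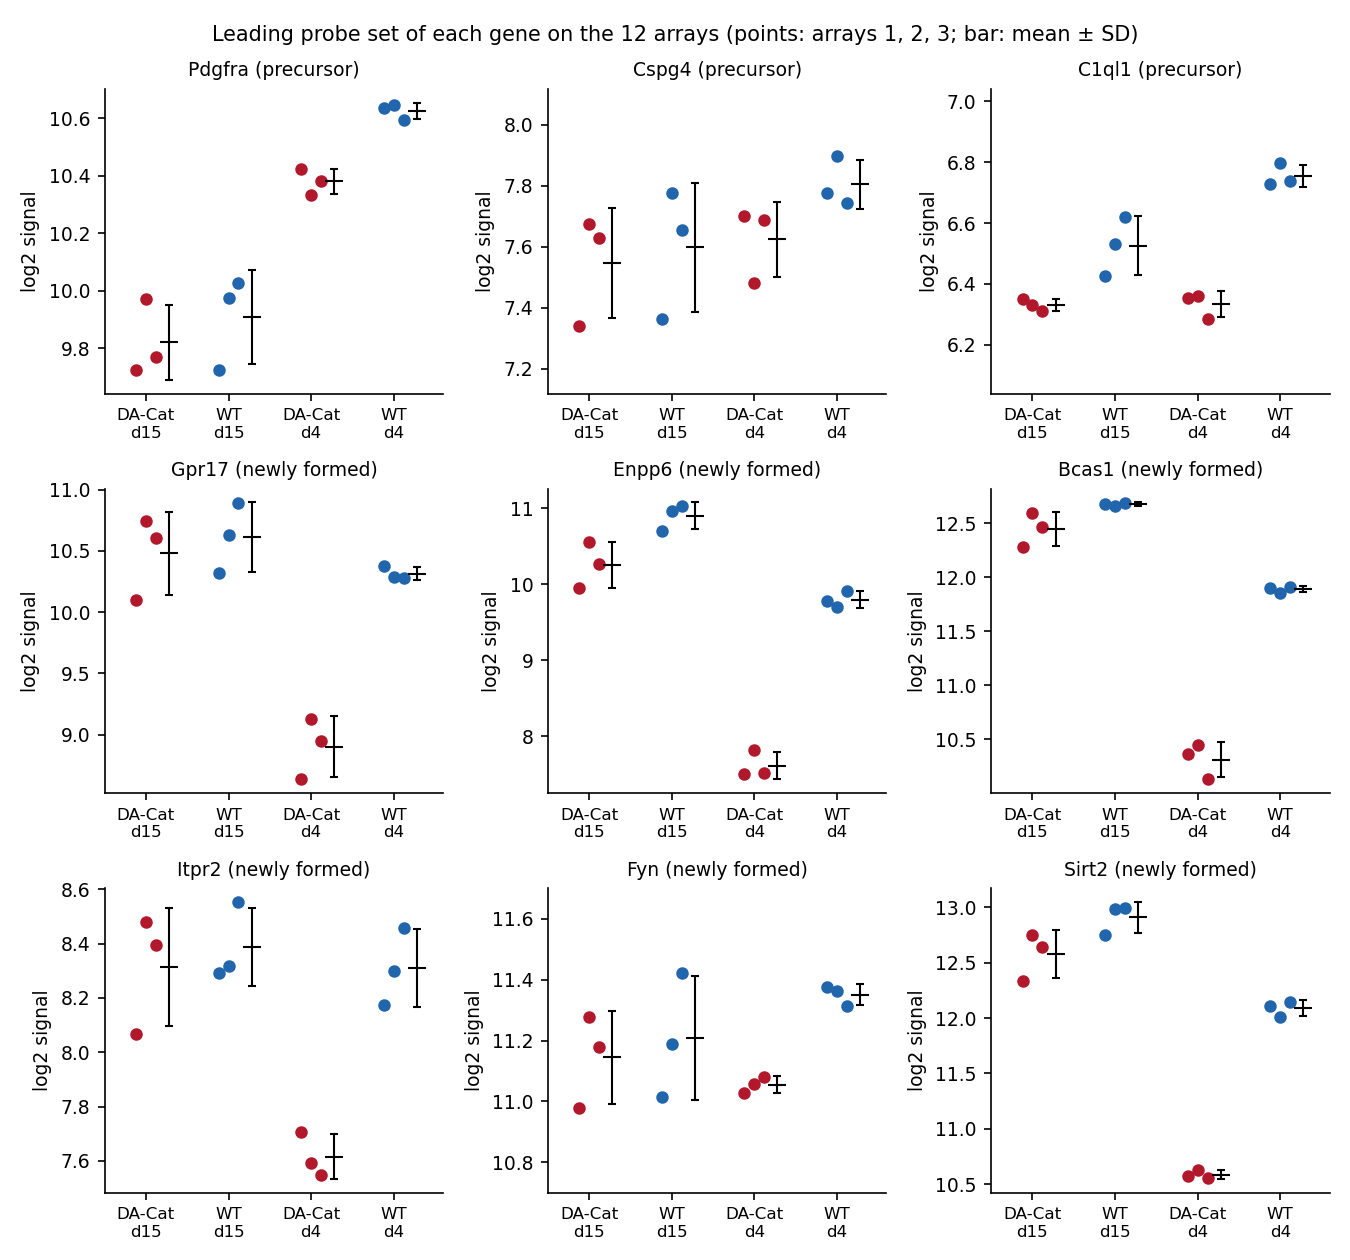
Log2 signal (vertical axes, scaled per gene) of the leading probe set of each of the 9 genes on the 12 arrays; points are arrays in the order of replicates 1, 2 and 3, and bars give mean ± SD (n = 3). At day 4 all 3 Olig2cre/DA-Cat arrays lie below all 3 wild-type arrays for every gene, by most for Enpp6; at day 15 the groups overlap for 6 of the 9 genes.

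Enpp6, a choline phosphodiesterase that marks oligodendrocytes about to myelinate, was at 7.50, 7.82 and 7.51 in Olig2cre/DA-Cat and at 9.78, 9.69 and 9.91 in wild type. No Olig2cre/DA-Cat array came near the wild-type range. The difference was -2.18 ± 0.15 (SE, limma adjusted p = 2.54e-06), and only 0.0688% of all probe sets had one as low or lower. Its dimmer probe set differed by -2.04 (limma adjusted p = 1.34e-05).

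Bcas1, a protein known from oligodendrocytes that are starting to myelinate, was at 10.36, 10.44 and 10.13 in Olig2cre/DA-Cat and at 11.90, 11.86 and 11.91 in wild type. The wild-type arrays lay within 0.05 of each other, and the groups were far apart, with a difference of -1.58 ± 0.09 (SE, limma adjusted p = 8.1e-07). The gene's other probe sets, at levels between 4.41 and 5.84 at day 4, differed by -0.15 and -0.31 and did not pass; the call is that of the bright probe set. Sirt2, a deacetylase of tubulin found in myelinating cells, was at 10.57, 10.63 and 10.56 in Olig2cre/DA-Cat and at 12.11, 12.01 and 12.15 in wild type. Its difference was -1.50 ± 0.10 (SE, limma adjusted p = 3.33e-06), on its only probe set.

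Gpr17, a G protein-coupled receptor that restrains the maturation of committed precursors in mice, was at 8.63, 9.13 and 8.94 in Olig2cre/DA-Cat and at 10.37, 10.29 and 10.28 in wild type. It fell by 1.41 ± 0.18 (SE, limma adjusted p = 0.000798), to 37.6% of the wild-type signal. Itpr2, an inositol trisphosphate receptor that releases calcium from the endoplasmic reticulum, was at 7.71, 7.59 and 7.55 in Olig2cre/DA-Cat and at 8.17, 8.30 and 8.46 in wild type. This was a smaller fall than those of the previous genes, by 0.70 ± 0.12 (SE, limma adjusted p = 0.00771). Of the 6 probe sets of Itpr2, 3 passed, between -0.50 and -0.70, and the other 3 lay at -0.57, -0.23 and -0.12.

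Fyn, a Src-family kinase that promotes oligodendrocyte differentiation, was at 11.03, 11.06 and 11.08 in Olig2cre/DA-Cat and at 11.38, 11.36 and 11.31 in wild type. The groups did not overlap, but the difference of -0.30 did not pass (95% confidence interval -0.51 to -0.08, limma adjusted p = 0.173), nor did that of its other probe set at -0.40 (limma adjusted p = 0.111). Fyn is also used by neurons, whose markers were abundant in this tissue.

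Among the precursor genes, C1ql1, a secreted C1q-like protein, was at 6.35, 6.36 and 6.28 in Olig2cre/DA-Cat and at 6.73, 6.80 and 6.74 in wild type. It fell by 0.42 ± 0.07 (SE, limma adjusted p = 0.00487); its single probe set was dim, close to the median level of all probe sets. Pdgfra, the growth factor receptor of precursors, was at 10.42, 10.33 and 10.38 in Olig2cre/DA-Cat and at 10.64, 10.65 and 10.59 in wild type. Its groups did not overlap, with a difference of -0.24 that did not pass (95% confidence interval -0.44 to -0.05, limma adjusted p = 0.204). Cspg4, the NG2 proteoglycan of precursors and pericytes, was at 7.70, 7.48 and 7.69 in Olig2cre/DA-Cat and at 7.78, 7.90 and 7.74 in wild type. Its difference of -0.18 did not pass either (95% confidence interval -0.43 to 0.07, limma adjusted p = 0.476). In all, the 3 arrays of the genotypes did not overlap for 9 of the 9 genes, lower in Olig2cre/DA-Cat, where 10.3% of all named genes had this order.

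**Figure D2:**
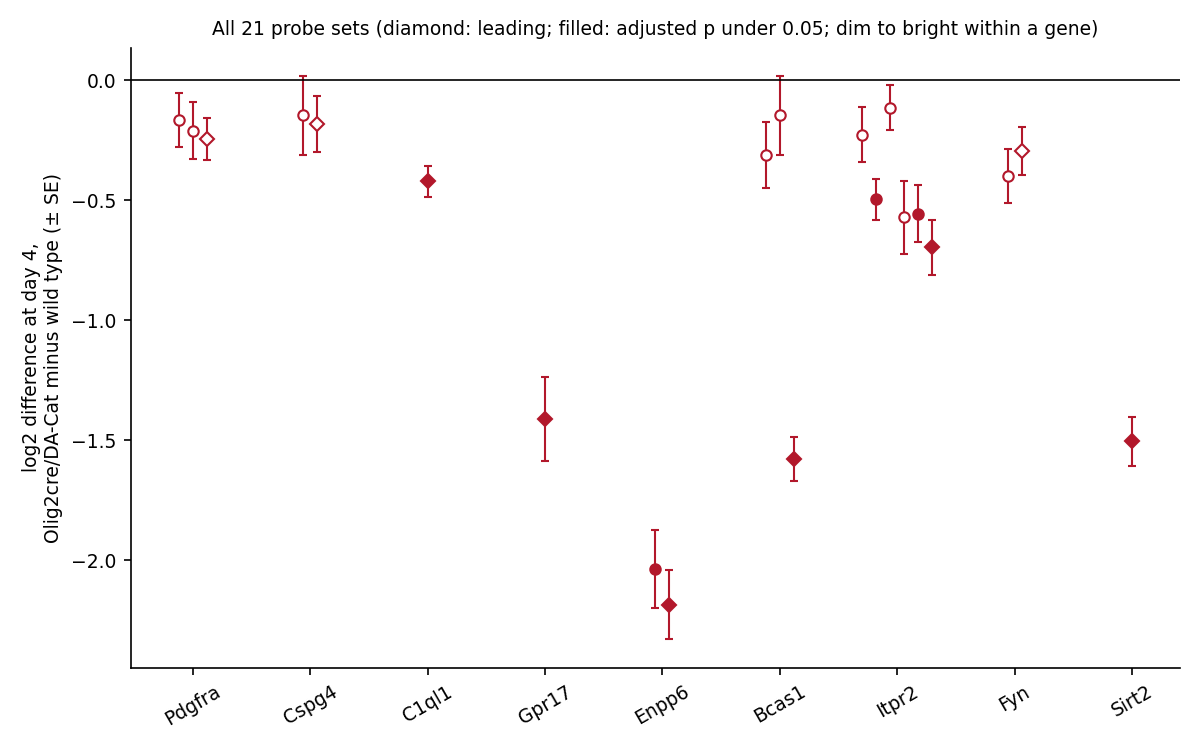
Log2 difference at day 4, Olig2cre/DA-Cat minus wild type (vertical axis, ± SE), for all 21 probe sets of the 9 genes, ordered from dim to bright within a gene; diamonds are leading probe sets and filled symbols have a limma adjusted p under 0.05. All 21 lie below 0, and 9 passed, where 1.08% of all probe sets fell; the dim probe sets of Bcas1 lie far from its bright one.

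At day 15 few of these genes differed between the genotypes. Of the 9 genes only Enpp6 fell and 0 rose, against 1.82% of all named genes that fell and 0.368% that rose, and the median difference was -0.13 over the 9 genes and 0.02 over all named genes. The groups did not overlap for 3 of the 9 genes (Enpp6, Bcas1 and C1ql1), lower in Olig2cre/DA-Cat, an order that 9.69% of named genes had. Of the 21 probe sets 1 fell, against 1.36% of all probe sets. Before adjustment, 4 of the 9 genes had p under 0.05 in limma. The share of all named genes at that cut was not counted, so this number has no background beside it.

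Enpp6 was at 9.95, 10.55 and 10.26 in Olig2cre/DA-Cat and at 10.70, 10.97 and 11.03 in wild type. Its difference of -0.65 ± 0.15 (SE, limma adjusted p = 0.0459) left 63.9% of the wild-type signal. The call is marginal: of the 12 fits that each left out 1 array it held in 2, those without replicate 2 of Olig2cre/DA-Cat at day 15 and at day 4. With the mean level of skeletal muscle genes as a covariate the difference was -0.56 (limma adjusted p = 0.152), and over the 25 alternatives the adjusted p ranged from 0.0112 to 0.207.

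Sirt2 was at 12.34, 12.75 and 12.65 in Olig2cre/DA-Cat and at 12.75, 12.98 and 13.00 in wild type. The highest Olig2cre/DA-Cat array reached the lowest wild-type array, and the difference of -0.33 did not pass (95% confidence interval -0.56 to -0.11, limma adjusted p = 0.161). Bcas1 was at 12.28, 12.59 and 12.47 in Olig2cre/DA-Cat and at 12.68, 12.66 and 12.69 in wild type, a difference of -0.23 (limma adjusted p = 0.304). Gpr17 was at 10.10, 10.74 and 10.60 in Olig2cre/DA-Cat and at 10.32, 10.63 and 10.89 in wild type. These ranges overlapped widely, and the difference of -0.13 had a 95% confidence interval of -0.51 to 0.25.

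The other 5 genes had differences between -0.19 for C1ql1 and -0.05 for Cspg4, and none passed. C1ql1 was at 6.35, 6.33 and 6.31 in Olig2cre/DA-Cat and at 6.43, 6.53 and 6.62 in wild type. Pdgfra was at 9.72, 9.97 and 9.77 in Olig2cre/DA-Cat and at 9.72, 9.98 and 10.03 in wild type, so both genotypes reached the same lowest level. Its dimmer probe sets differed by -0.11 and 0.16, the latter without overlap of the groups, and neither passed. The array numbered 1 was the lowest of its group for 8 of the 9 genes in Olig2cre/DA-Cat and for 8 of the 9 in wild type. Skeletal muscle genes were highest on that array in Olig2cre/DA-Cat, at 10.77, and at 6.50, between the other 2 arrays, in wild type. Their part in the low values was not tested. The median range over the 3 arrays of a group was 0.33 for the 9 genes in Olig2cre/DA-Cat and 0.30 in wild type at day 15, against 0.16 and 0.10 at day 4.

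**Figure D3:**
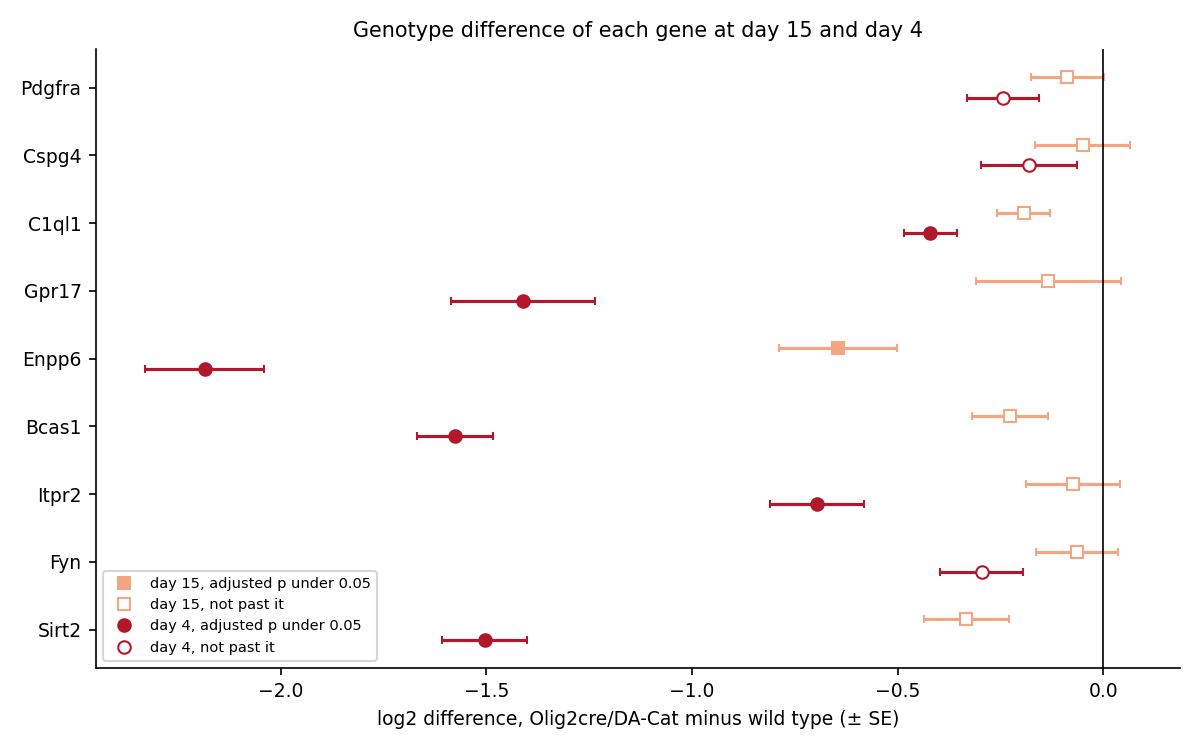
Log2 difference of each gene, Olig2cre/DA-Cat minus wild type (horizontal axis, ± SE of the limma fit), at day 15 (squares) and day 4 (circles); filled symbols passed the test. Every gene lies closer to 0 at day 15 than at day 4, and Enpp6 is lowest at both days.

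The change of the genotype difference between the days was tested itself. It was positive, meaning a smaller deficit at day 15, for 9 of the 9 genes, and passed for 3, all newly formed genes, against 0.176% of all named genes. None was negative past the threshold, against 0.132% of named genes. A smaller deficit at day 15 was not particular to the 9 genes. Of 19 myelinating genes 10 passed as positive, with a median change of 1.22. Of 15 further newly formed genes 2 did (median 0.90), and of 17 further precursor genes 1 did (median 0.14). In these lists 0 passed as negative. Enpp6 differed between genotypes by -0.65 at day 15 and by -2.18 at day 4, a change of 1.54 ± 0.20 (SE, limma adjusted p = 0.00529). The change was 1.35 ± 0.13 for Bcas1 (SE, limma adjusted p = 0.000332) and 1.17 ± 0.15 for Sirt2 (SE, limma adjusted p = 0.00313). Over all 21 probe sets 4 passed, the other being the dimmer one of Enpp6 at 1.37, against 0.135% of all probe sets. These 3 calls held under each of the 24 alternatives run for them. Gpr17 changed by 1.28 ± 0.25, which did not pass (SE, limma adjusted p = 0.0833) although it was as large as that of Sirt2; it passed under 6 of 24 alternatives, at 1.47 without Olig2cre/DA-Cat day 15 replicate 1 (limma adjusted p = 0.0139) and at 1.42 without wild type day 15 replicate 3 (limma adjusted p = 0.0432). The changes of Pdgfra, Cspg4, C1ql1 and Fyn lay between 0.13 and 0.23, and that of Itpr2 was 0.62 (95% confidence interval 0.27 to 0.97, limma adjusted p = 0.272).

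In wild type some of these genes changed between the days. Of the 9 genes 3 rose (19.9% of all named genes rose), namely the newly formed genes Enpp6, Bcas1 and Sirt2, and 2 fell (21.8% of all named genes fell), namely the precursor genes Pdgfra and C1ql1. Changes with day were thus frequent among all genes, and the share of the 9 that fell is near that background. Enpp6 averaged 10.90 ± 0.18 at day 15 and 9.80 ± 0.11 at day 4 (SD, n = 3 each), higher by 1.10 ± 0.15 (SE, limma adjusted p = 6.3e-05). Bcas1 averaged 12.68 ± 0.02 at day 15 and 11.89 ± 0.03 at day 4, and rose by 0.79. Sirt2 rose by 0.82. Pdgfra averaged 9.91 ± 0.16 at day 15 and 10.62 ± 0.03 at day 4, and fell by 0.72 ± 0.09 (SE, limma adjusted p = 3.9e-05), to 60.9% of its day 4 signal. Its dimmer probe sets changed by -0.22 (limma adjusted p = 0.196) and -0.46 (limma adjusted p = 0.00621). C1ql1 fell by 0.23 (limma adjusted p = 0.0159), a call lost without wild type day 4 replicate 2 (limma adjusted p = 0.061) or wild type day 15 replicate 1 (limma adjusted p = 0.0773), and with the level of meninges and fibroblast genes as a covariate, where the change was -0.09 (limma adjusted p = 0.583). Those genes had mean levels of 8.28 to 9.45 on the wild-type day 15 arrays and 9.59 to 10.15 on the day 4 arrays; Pdgfra is also a gene of fibroblasts, and with that covariate it still fell, by 0.54 (limma adjusted p = 0.0149).

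Gpr17 and Itpr2 did not pass in wild type. Gpr17 averaged 10.61 ± 0.28 at day 15 and 10.31 ± 0.05 at day 4, a change of 0.30 (95% confidence interval -0.08 to 0.68, limma adjusted p = 0.231); without both day 15 arrays numbered 1, an alternative chosen after seeing the data, it was 0.44 (limma adjusted p = 0.0301). Itpr2 changed by 0.08 (95% confidence interval -0.17 to 0.33), Fyn by -0.14 and Cspg4 by -0.21, and none of these passed.

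In Olig2cre/DA-Cat most of the newly formed genes rose between the days. Of the 9 genes 5 rose (20.1% of all named genes rose), all of them newly formed genes, and Pdgfra fell (25% of all named genes fell). Enpp6 averaged 10.25 ± 0.30 at day 15 and 7.61 ± 0.18 at day 4, 6.25 times its day 4 signal (log2 change 2.64, limma adjusted p = 3.81e-08). Bcas1 rose by 2.14, Sirt2 by 1.99, Gpr17 by 1.58 and Itpr2 by 0.70. Pdgfra averaged 9.82 ± 0.13 at day 15 and 10.38 ± 0.04 at day 4, and fell by 0.56 (limma adjusted p = 0.00025). That call is of its bright probe set. Its dimmer probe sets changed by -0.12 (limma adjusted p = 0.507) and -0.13 (limma adjusted p = 0.417). C1ql1 averaged 6.33 at both days, Fyn changed by 0.09 and Cspg4 by -0.08. The day comparisons of the genotypes and the genotype comparisons of the days use the same 12 arrays, so these values are not independent of each other.

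**Figure D4:**
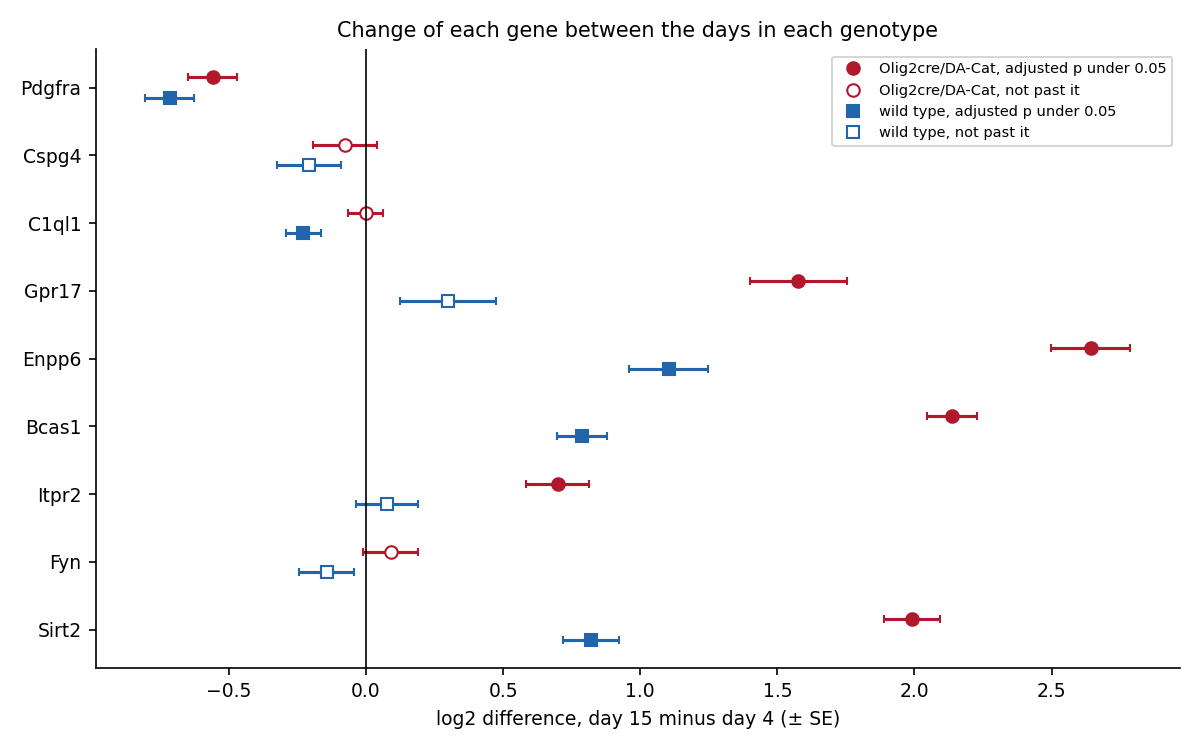
Log2 difference of each gene, day 15 minus day 4 (horizontal axis, ± SE of the limma fit), in Olig2cre/DA-Cat (circles) and wild type (squares); filled symbols passed the test. Pdgfra fell in both genotypes, whereas Enpp6, Bcas1 and Sirt2 rose in both and lie further right in Olig2cre/DA-Cat.

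The order of the 4 groups by level differed between genes, also within a stage. Enpp6 and Bcas1 had the order Olig2cre/DA-Cat day 4, wild type day 4, Olig2cre/DA-Cat day 15 and wild type day 15, with no overlap between neighbouring groups. Sirt2 had the same order, and its day 15 groups met. Gpr17 and Itpr2 had it too by their means, but the 3 groups other than Olig2cre/DA-Cat day 4 overlapped with their neighbours. Pdgfra ran from Olig2cre/DA-Cat day 15 over wild type day 15 and Olig2cre/DA-Cat day 4 up to wild type day 4, and its day 15 groups overlapped. For C1ql1 both Olig2cre/DA-Cat groups overlapped at the lowest level, followed by wild type day 15 and wild type day 4. In the Cspg4 and Fyn series, wild type day 4 was highest by its mean, and neighbouring groups mostly overlapped.

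Genes with a pattern most like each member were taken by Pearson correlation of levels over the 12 arrays. These arrays span both days and both genotypes, so differences between the 4 groups enter every correlation. Enpp6, Bcas1, Sirt2 and Gpr17 were alike among themselves, with correlations between 0.954 for Bcas1 and Gpr17 and 0.996 for Enpp6 and Sirt2. The closest other genes were Plxnb3, Mag and Ugt8a for Enpp6 (0.995, 0.995 and 0.995), Ugt8a, Mobp and Tmem88b for Bcas1 (0.998, 0.997 and 0.995), and Mag, Ugt8a and Gltp for Sirt2 (0.996, 0.995 and 0.994). Mag and Mobp are myelin proteins, and Ugt8a makes the myelin lipid galactocerebroside. Gpr17 was closest to Plxnb3, Cnksr3 and Ddc (0.977, 0.976 and 0.974), and Itpr2 to Shisal1, Rnf122 and Nfasc (0.971, 0.967 and 0.956). Pdgfra was closest to Carmil1, Tubb2b and Ctbp1 (0.987, 0.971 and 0.970), none of which passed the genotype test at day 4. The closest genes to C1ql1 were Tdo2, Dnase2a and Vxn (0.932, 0.918 and 0.900), those to Fyn were Fkbp9, Cdv3 and Cemip2 (0.943, 0.919 and 0.911), and those to Cspg4, Slc22a21, Slc26a5 and Sytl1, reached only 0.884, 0.877 and 0.857. Pdgfra correlated at -0.50 with Enpp6 and at 0.69 with Cspg4.

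Other genes of the same stages gave wider lists. Of 15 further newly formed genes 10 fell at day 4 and 0 rose, with a median of -0.75; the smallest p were those of Cnksr3 at -1.89, the adhesion molecule Nfasc at -1.46, the myelin gene regulator Myrf at -1.83, and the transcript 9630013A20Rik at -2.62. At day 15, 3 of the 15 fell and 0 rose, with a median of -0.33. Of 17 further precursor genes 5 fell and 1 rose at day 4, with a median of -0.16. Among those that fell were the matrix protein Tnr at -0.92 and the lineage transcription factors Olig2 at -0.90, Sox10 at -1.06 and Olig1 at -0.44, which later stages of the lineage also express. Olig2 is also the gene named in the Cre driver. Without a group that carried Cre alone, an effect of the driver on the Olig2 level cannot be told apart. The gene that rose was the matrix protein Matn4, by 0.78, named here after its value was seen. At day 15, 2 of the 17 fell and 0 rose, with a median of -0.16. Of 19 myelinating genes 18 fell at day 4, with a median of -1.74, among them Ermn at -3.33, Mobp at -3.02, Gsn at -2.02 and Mbp at -1.70, and 14 fell at day 15, with a median of -0.65. The median over all named genes was 0.02 at day 15 and 0.03 at day 4. Of all named genes, 1.45% fell and 0.561% rose at day 4, and 1.82% fell and 0.368% rose at day 15. Between the days in wild type, 4 of the 17 further precursor genes rose and 7 fell, and 6 of the 15 further newly formed genes rose and 0 fell. Of all named genes 19.9% rose and 21.8% fell between these days, so the share of the 17 that rose is near that background. In Olig2cre/DA-Cat, 11 of the 15 further newly formed genes rose and 0 fell, with a median change of 1.28. There 19 of 19 myelinating genes rose, with a median of 3.14. Of the 17 further precursor genes 6 rose and 7 fell. Of all named genes 20.1% rose and 25% fell in that genotype.

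**Figure D5:**
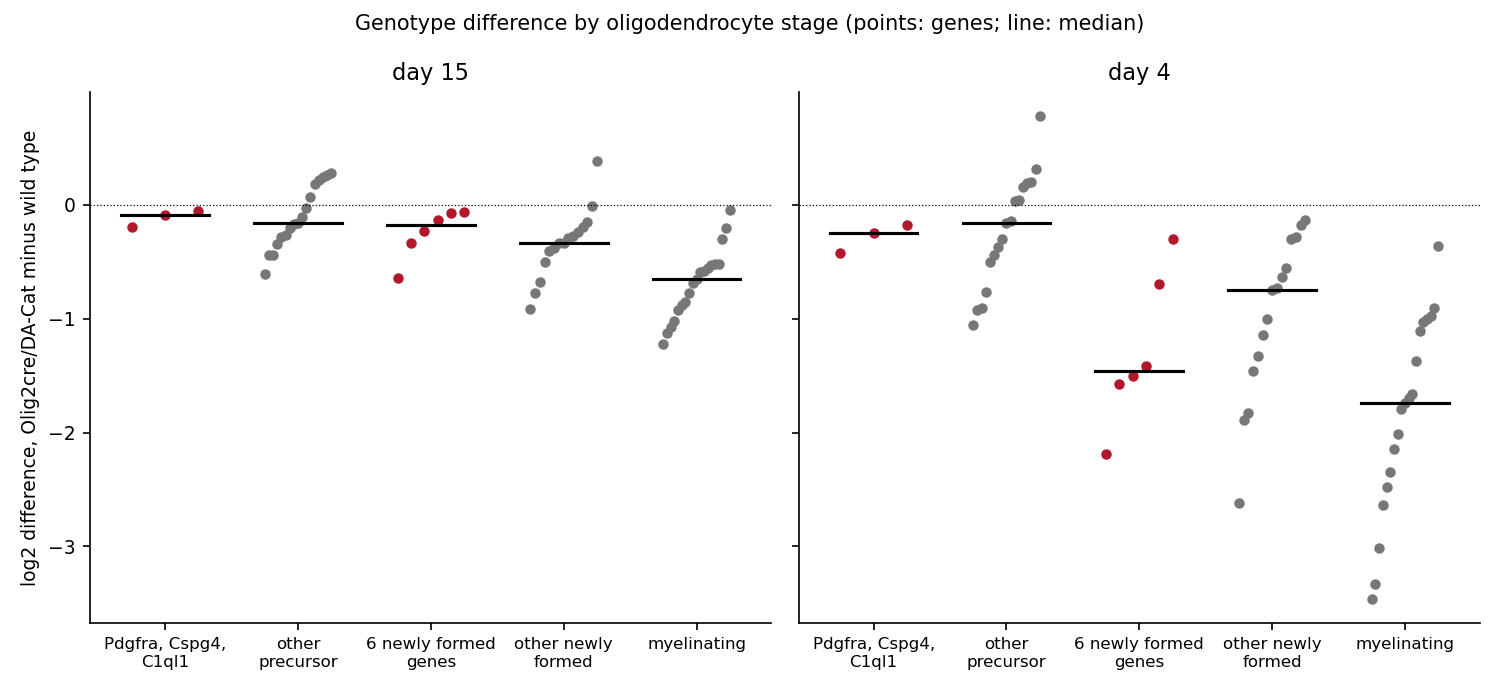
Log2 difference, Olig2cre/DA-Cat minus wild type (vertical axis), at day 15 (left) and day 4 (right) for the 3 precursor and 6 newly formed genes (red) and for the other genes of the precursor, newly formed and myelinating stages (grey); points are genes and lines are medians. At day 4 the medians are -0.24 and -0.16 for precursor genes, -1.46 and -0.75 for newly formed genes and -1.74 for myelinating genes.

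Markers of other cells were read on the same arrays. Over 8 lists with 69 measured genes of neurons, astrocytes, microglia, endothelium, pericytes and smooth muscle, meninges and fibroblasts, Schwann cells and skeletal muscle, 0 passed in limma in either direction at day 4, and 1, the Schwann cell gene Ncmap, rose at day 15, by 1.25 (named after its value was seen). Before adjustment 16 of the 69 had p under 0.05 at day 15 and 5 at day 4, and the share of all named genes at that cut was not counted. Skeletal muscle genes had a median difference of 2.16 at day 15 and 0.89 at day 4 without any gene passing, and meninges and fibroblast genes had medians of 0.59 at day 15 and 0.27 at day 4, also without a gene passing. Their part in the levels of the 9 genes was not tested beyond the covariate fits. With the muscle level as a covariate the same 6 genes fell at day 4. The mean level of pericyte and smooth muscle genes, which share Cspg4 with precursors, was 7.80 to 7.88 in Olig2cre/DA-Cat and 7.67 to 7.84 in wild type at day 4. The mean level of neuron genes, which share Fyn, was 11.74 to 11.80 in Olig2cre/DA-Cat and 11.66 to 11.73 in wild type at day 4.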

How the data were processed

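The authors deposited 1 log2 signal per probe set and array, for 12 one-colour Affymetrix 3' arrays. The software, background correction and normalization behind these log2 values are not given in the sources used here. The log2 scale was judged from the values, which ran from 2.34 to 15.05 with nearly equal quartiles on all arrays, so that changes common to most genes would be hidden. Array data carry no read depth, and the number of arrays limits the precision. After 64 control probe sets were removed, 45037 were fitted in limma 3.58.1 (R 4.3.3) with a mean for each group, using lmFit, contrasts.fit and eBayes with 8 residual and 4.38 prior degrees of freedom, with two-sided Benjamini-Hochberg adjusted p-values over all of them and a threshold of 0.05. All adjusted p-values come from this fit or a named alternative. The platform annotation gave 1 gene symbol for 34945 of them, several for 932 and none for 9160; through Entrez identifiers 34741 matched RefSeq (GRCm38.p6), with 0 symbols changed. The probe set with the highest mean stood for each gene.

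The 9 genes, the lists and the motifs were chosen with earlier results of these data known. The text names the 9 genes, the 4 genes with the smallest day 4 p in each lineage list, and the 3 genes most correlated with each member (clone names passed over). Confidence intervals are those of single genes from the moderated fit, unadjusted. Replicate numbers in the titles were not used to pair the samples. The deviations of 18 same-numbered pairs correlated between -0.23 and 0.16, and those of differently numbered pairs between -0.19 and 0.24. Many of the same-numbered pairs join different days, so these values cannot exclude a pairing within a day. The median residual SD was 0.12, and an array's mean correlation with its group 0.993 to 0.997. P-values measure the spread between samples, whose animals the labels do not describe.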

Additional observations from a re-analysis of the deposited data

Results flagged for a closer look

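For 3 genes the genotype effect differed between the days by the test of that difference in limma: Enpp6 by 1.54 (adjusted p = 0.00529), Bcas1 by 1.35 (adjusted p = 0.000332) and Sirt2 by 1.17 (adjusted p = 0.00313), each a smaller deficit of Olig2cre/DA-Cat at day 15 than at day 4.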

How the results depend on the processing

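Of 225 values of single genes under alternatives for the genotype at day 4, 225 kept their direction if called and their side of the threshold, and so did 225 for the day in Olig2cre/DA-Cat. For the genotype at day 15, 209 did; the count of members that fell there was 0 with array weights, with the muscle or the meninges covariate, from the 6 day 15 arrays alone and without both day 15 arrays numbered 1 (chosen after seeing the data), and 2 with the Eif2s3y covariate, where Sirt2 was at -0.48 (limma adjusted p = 0.0444). Leaving out single arrays gave 0 to 1. In wild type 1 of the 9 genes fell between the days with the meninges covariate, from the 6 wild-type arrays alone and without both day 15 arrays numbered 1, and 1 to 2 without single arrays. For the difference between days, members higher were 3 to 4 without single arrays; with the replicate number as a block Gpr17 passed as well (1.28, limma adjusted p = 0.0312), and the block changed no other call of the 9 genes. The cause of these moves was not tested. Over all probe sets the day 4 genotype count was 673, and 1232 without the dimmest 50%, 1926 with array weights and 330 to 772 without single arrays (330, 345, 367 and 418 without wild type replicate 1, Olig2cre/DA-Cat replicate 3, Olig2cre/DA-Cat replicate 2 and wild type replicate 2 of day 4). At day 15 it was 729, and 1162 without the dimmest 50%, 1121 with trend and robust settings, 372 with the muscle covariate, 364 with the meninges covariate, 1126 with the Eif2s3y covariate, 82 from the 6 arrays alone, 84 without both arrays numbered 1 and 341 to 1058 without single arrays (346, 347 and 341 without Olig2cre/DA-Cat replicate 1, Olig2cre/DA-Cat replicate 3 and wild type replicate 1 of day 15). The difference between days had 99, and 70 to 113 without single arrays. The day counts were 14892 in wild type (8436 with the meninges covariate, 12583 to 14988 without single arrays) and 16088 in Olig2cre/DA-Cat (13882 to 16505). With 1 probe set per gene fewer features were tested, and the counts were 64 for the difference between days, 8159 for the day in wild type and 8743 for that in Olig2cre/DA-Cat. No probe set of the 9 genes was tested for signal over background, which the files used here do not give.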
